A study of Mus musculus with 6 samples.

Results

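The genes described here were chosen by name. They are *Cd14*, *Ly96*, *Cd180*, *Ly86*, *Myd88*, *Ticam1*, *Ticam2*, *Tirap*, *Irak2* and *Irak3*, and they encode co-receptors and the first signalling proteins of Toll-like receptors (TLRs). All 10 were found among the 55335 mouse genes of the table, and all 10 were among the 13367 that were tested because their FPKM (transcript fragments per kilobase, set relative to the library total) averaged 0.5 or more over the libraries. The RNA came from bone marrow-derived macrophages (BMDMs), which had been grown from WT marrow with M-CSF at 25 ng/ml for 7 days. They were then kept for 24 h in direct co-culture with neutrophils taken by magnetic sorting from the injured spinal cord of *Cd177* WT or *Cd177* KO mice at 3 dpi (days after spinal cord injury), and per the labels the macrophages were then isolated by FACS. There were 3 libraries per group. The BMDMs were WT in both groups, so that only the neutrophils carried the *Cd177* deletion. Per the methods the mice were adult males, the WT strain was C57BL/6, and the *Cd177*-/- mice were purchased. BMDMs without neutrophils were not analysed here, so a level after co-culture cannot be set against BMDMs alone. The sources do not say whether the replicates were separate cultures or donors, and the p-values measure the spread between these libraries only.

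TLRs recognise microbial molecules and molecules released from damaged cells, and macrophages are among the cells that depend on them most. Lipopolysaccharide is handed by CD14 to MD-2 (*Ly96*), which sits on TLR4, while RP105 (*Cd180*) and its partner MD-1 (*Ly86*) form a similar complex that lacks a signalling domain and restrains TLR4 in macrophages. Inside the cell, TIR domain adaptors carry the signal. MyD88, reached through the bridging adaptor TIRAP, recruits IRAK kinases and leads to NF-kB, and TRIF (*Ticam1*), reached from TLR4 through TRAM (*Ticam2*), leads to type I interferon. IRAK2 sustains the MyD88 signal and IRAK-M (*Irak3*) inhibits it.

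In the libraries labelled KO, *Cd14* was 10.2-fold lower, *Myd88* was modestly lower, and *Cd180*, *Ly86* and *Ticam2* were 1.55-, 1.72- and 1.69-fold higher. With limma on log2(FPKM + 0.5) and Benjamini-Hochberg adjustment over all 13367 genes, 3 of the 10 genes were higher and 2 were lower, the threshold being an adjusted p-value of 0.05. Over all tested genes 27.1% were higher and 10.5% were lower by the same rule, 37.6% in either direction, so a count of 5 among 10 is close to that background. The median log2 difference of the 10 genes was -0.13, while that of all tested genes was 0.19. In 5 of the 10 genes no WT library lay within the range of the KO libraries or the reverse, against 51.9% of all tested genes. *Cd14* was the 1 gene of the 10 that passed the study's threshold (fold change above 2 and unadjusted p-value under 0.05), which 11.1% of all tested genes passed.

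**Figure D1:**
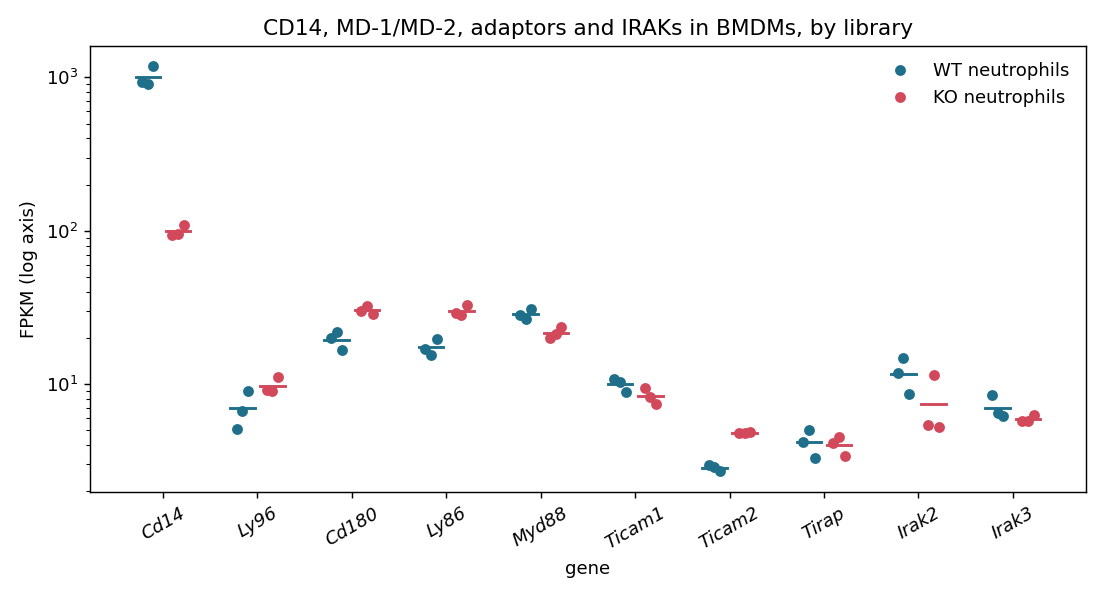
FPKM of the 10 genes in each library, on a log axis. Points are libraries (blue, WT neutrophils; red, KO neutrophils) and bars are group means of 3 libraries. *Cd14* fell from a mean of 1009.5 to 99.4 FPKM, and for *Ly96*, *Ticam1*, *Tirap*, *Irak2* and *Irak3* the groups overlap.

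The libraries had 17700000 to 20300000 fragments if the most common lowest value of genes with 1 transcript stands for 1 fragment, which is an estimate because only 39.9% to 43.5% of the low values fell near a whole multiple (tolerance 0.1, 20% by chance). Of 8 macrophage markers all were tested, with *Adgre1* at 218 to 309 FPKM and *Csf1r* at 232 to 293 FPKM in the 6 libraries. *Lyz2* and *C1qa* were the most abundant of that list, at 4922 and 477 FPKM with WT neutrophils and 6144 and 806 FPKM with KO neutrophils on average. *Cd177* itself was listed at 0.544, 0.309 and 0.521 FPKM with WT neutrophils and at 1.79, 1.84 and 2.28 FPKM with KO neutrophils, which runs against the labels, so groups are named here by their labels only. The BMDMs carried an intact gene, and which exons were deleted is not given in the sources used here, so this value cannot check the knockout. Neutrophil markers had a summed level of 202 to 262 FPKM with WT and 557 to 572 FPKM with KO neutrophils, with 10 of the 12 tested higher and *Mmp8* lower. *S100a9* and *S100a8* led that list, with means of 90.5 and 64.9 FPKM with WT and 234 and 104 FPKM with KO neutrophils. *Ly6g* was listed at 0 in all WT libraries and at 0.403 to 0.66 FPKM in the KO libraries. The part of neutrophil RNA in the results below was not tested. T and NK markers summed to at most 0.122 FPKM in any library, with *Cd3e* and *Nkg7* the highest of them, and the dendritic cell list, led by *Clec9a* and *Zbtb46*, to at most 1.26 FPKM, with *Flt3* at 0 throughout. Spinal cord markers summed to 15.6 to 18.2 FPKM with WT and 17.3 to 22.5 FPKM with KO neutrophils, with *Tmem119* and *Mbp* the highest on average. *P2ry12*, a microglial marker, was the 1 gene of that list that rose, from 0.177, 0.214 and 0.261 FPKM with WT to 2.52, 6.49 and 7.195 FPKM with KO neutrophils (log2 difference 2.93, adjusted p = 0.000903, limma), while *Tmem119*, another such marker, had means of 11.004 and 8.73 FPKM and did not pass (adjusted p = 0.0607, limma). The part of microglial RNA in the results below was not tested.

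Promoters are shown for *Myd88*, *Ly86* and *Cd180*, which changed and have one in the RefSeq table (GRCm38.p6). A reader may want to see what lies before the start of a gene that fell and of the pair that rose together. Windows were taken for 7 of the 10 genes, with 10 windows in all. *Ly96* has none listed under that symbol. *Cd14* and *Ticam2* were left out of the search, so whether a promoter is listed for them is not shown here. Each line is the 250 bases before the first listed start, 5′ to 3′ on the strand of the gene, and capitals mark a motif match. For *Myd88* and *Ly86* this RefSeq start lies inside the gene as GENCODE M21 draws it:
Myd88, chr9:119340019-119340268, minus strand: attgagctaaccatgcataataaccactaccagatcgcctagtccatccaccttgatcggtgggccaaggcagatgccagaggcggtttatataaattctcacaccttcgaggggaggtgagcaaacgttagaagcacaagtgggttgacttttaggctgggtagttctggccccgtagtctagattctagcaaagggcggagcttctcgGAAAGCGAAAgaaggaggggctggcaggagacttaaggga
Ly86, chr13:37345095-37345344, plus strand: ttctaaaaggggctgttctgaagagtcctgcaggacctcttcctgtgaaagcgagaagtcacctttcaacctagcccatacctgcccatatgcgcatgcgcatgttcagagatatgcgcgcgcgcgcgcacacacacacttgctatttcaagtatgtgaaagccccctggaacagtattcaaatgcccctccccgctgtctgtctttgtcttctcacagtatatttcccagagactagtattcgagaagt
Cd180, chr13:102693297-102693546, plus strand: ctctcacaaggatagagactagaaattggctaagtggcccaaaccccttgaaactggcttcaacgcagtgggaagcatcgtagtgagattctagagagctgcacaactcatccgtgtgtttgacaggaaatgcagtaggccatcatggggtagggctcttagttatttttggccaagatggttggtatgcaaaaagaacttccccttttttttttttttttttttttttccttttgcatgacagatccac
Windows of 300 bases (250 before to 50 after the start) were searched on both strands for the ISRE core GAAANNGAAA, the NF-kB consensus, the PU.1 core GAGGAA and the AP-1 site TGANTCA. The *Myd88* window held an ISRE core whose first base lies 40 bases before the start, in capitals above, and 3.44% of all 32851 windows hold one. A PU.1 core lay in the *Ticam1* window, starting 30 bases before the start, and in 1 *Irak3* window, starting 33 bases after it, and 28.3% of all windows hold one. The letters of the NF-kB consensus and the AP-1 site, found in 8.46% and 7.81% of all windows, were in none of the 10 windows, and no match overlapped another. These matches describe letters and not bound sites, and no binding data were analysed here.

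*Cd14* encodes the lipopolysaccharide co-receptor, which is anchored at the cell surface and also shed in soluble form. The gene (ENSMUSG00000051439, chromosome 18 from 36725067 to 36726798, minus strand, GENCODE M21, GRCm38) had 935, 911 and 1182 FPKM with WT neutrophils. With KO neutrophils it had 93.7, 95.5 and 109 FPKM. Every KO library lay far below every WT library, and the largest fold between libraries of 1 group was 1.30. The log2 difference was -3.33 (standard error 0.13, 95% CI -3.63 to -3.03, adjusted p = 6.82e-06 from limma). By mean level it was the 33rd most abundant of the 13367 tested genes with WT neutrophils and the 414th with KO neutrophils, and its fall was the 65th largest on the log2 scale. In bulk RNA, fewer cells of a type and less RNA per cell cannot be told apart. Per the paper, a neutrophil cluster of the injured cord expresses *Cd14* as well, and the part of neutrophil RNA in these values was not tested. Among the macrophage markers, *Fcgr1* fell too, from 121 ± 2.67 to 33.8 ± 0.714 FPKM (SD, n = 3 each), whereas *Csf1r* (adjusted p = 0.431, limma) and *Cd68* (adjusted p = 0.233, limma) did not pass the test and *Adgre1*, *Mertk* and *C1qa* rose.

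*Ly96*, which encodes MD-2, the part of the TLR4 complex that binds lipopolysaccharide (ENSMUSG00000025779, chromosome 1 from 16688051 to 16709611), went the other way from *Cd14* without passing the test. It had 5.12, 6.74 and 9.07 FPKM with WT neutrophils and 9.16, 9.005 and 11.2 FPKM with KO neutrophils. WT replicate 3 lay among the KO libraries, and the other WT libraries lay below them. The log2 difference was 0.49 (95% CI 0.01 to 0.96, adjusted p = 0.0992 from limma), and without WT replicate 3 it was 0.68 (adjusted p = 0.0141, limma). Leaving out any other library gave 0.30 to 0.54 and no call (adjusted p = 0.153 to 0.238, limma). The ratio of *Cd14* to *Ly96* within a library does not depend on scaling between libraries. It was 182, 135 and 130 with WT neutrophils and 10.2, 10.6 and 9.74 with KO neutrophils. This difference of -3.82 on the log2 scale had the smallest p-value that 3 libraries against 3 allow (exact permutation test, two-sided, p = 0.1, adjusted p = 0.3 over 6 pairs).

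*Tlr4*, the receptor that MD-2 sits on, gave values that fell into separate levels without regard to group. It had 1.47, 1.496 and 10.8 FPKM with WT neutrophils and 1.29, 11.4 and 1.35 FPKM with KO neutrophils. WT replicate 3 and KO replicate 2 were thus several-fold above the other libraries of their groups, a spread of 6.603-fold on the FPKM + 0.5 scale. Its log2 difference of -0.05 had a 95% CI from -2.31 to 2.198 (adjusted p = 0.97, limma), which leaves a large change in either direction possible. Only 163 of the tested genes (1.22%) had a spread of at least 4-fold within a group, and none of the 10 genes was among them. The largest spread among the 10 was the 2.07-fold of *Irak2*. As a result the ratio of *Ly96* to *Tlr4* ranged from 0.793 to 8.26 within the KO libraries alone (exact permutation p = 0.6, adjusted p = 0.6).

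*Cd180* and *Ly86* encode RP105 and MD-1, which assemble on the cell surface as a complex related to TLR4 and MD-2. *Cd180* (ENSMUSG00000021624, chromosome 13 from 102693558 to 102739629) had 20.1, 21.9 and 16.6 FPKM with WT neutrophils and 30.1, 32.1 and 28.6 FPKM with KO neutrophils. All KO libraries lay above all WT libraries. The log2 difference was 0.62 (standard error 0.12, 95% CI 0.34 to 0.90, adjusted p = 0.00658 from limma). *Ly86* (ENSMUSG00000021423, chromosome 13 from 37345208 to 37419036) had 17.0, 15.5 and 19.8 FPKM with WT neutrophils and 29.0, 28.3 and 32.8 FPKM with KO neutrophils. Here too the groups did not overlap, with a log2 difference of 0.77 (standard error 0.11, 95% CI 0.50 to 1.04, adjusted p = 0.00243 from limma). The ratio of *Cd180* to *Ly86* stayed near 1, between 0.842 and 1.41 with WT and between 0.87 and 1.14 with KO neutrophils, and its log2 difference of -0.15 did not exceed the spread between libraries (exact permutation p = 0.5, adjusted p = 0.6).

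Both genes are also expressed by B cells, and some transcripts of that lineage rose as well. The summed level of 9 B-lineage markers was 1.41 to 2.51 FPKM with WT and 14.9 to 17.1 FPKM with KO neutrophils. All 3 markers that were tested rose, *Ighm* from 0.247 to 9.88 FPKM, *Cd79b* from 0.822 to 4.10 FPKM and *Ebf1* from 0.833 to 1.58 FPKM on average. *Cd79a*, a defining B cell marker, was at or near 0, with at most 0.0519 FPKM in any library, and *Igll1* was listed at 0 in all of them.

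The 4 TIR adaptors differed from each other in level and in direction. *Myd88*, the adaptor of most TLRs and of the IL-1 and IL-18 receptors (ENSMUSG00000032508, chromosome 9 from 119335934 to 119341411), was the most abundant of them in every library. It had 28.2, 26.6 and 31.0 FPKM with WT neutrophils and 20.04, 21.2 and 23.7 FPKM with KO neutrophils. The groups did not overlap, and the log2 difference was -0.40 (standard error 0.10, 95% CI -0.63 to -0.16, adjusted p = 0.0208 from limma). With 1 library left out the call was lost in 3 of 6 fits, at -0.40 without WT replicate 1, -0.34 without KO replicate 1 and -0.38 without KO replicate 2 (adjusted p = 0.059, 0.0844 and 0.0759, limma). It held without WT replicate 2, WT replicate 3 or KO replicate 3 (adjusted p = 0.0317, 0.0281 and 0.0234, limma). Of its 2576 exonic bases, 290 overlap exons of *Acaa1a* on the other strand.

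*Ticam2*, which encodes the TRAM adaptor that links TLR4 to TRIF (ENSMUSG00000056130, chromosome 18 from 46557291 to 46574533), was the tightest of the 10 genes within groups. It had 2.98, 2.89 and 2.70 FPKM with WT neutrophils and 4.80, 4.84 and 4.89 FPKM with KO neutrophils. The groups were clearly apart, with a log2 difference of 0.67 (standard error 0.09, 95% CI 0.46 to 0.88, adjusted p = 0.00151 from limma). *Ticam2* shares 838 exonic bases with *Tmed7* on the same strand, so how reads were split between them is uncertain. *Tmed7* itself had 23.0, 25.7 and 25.4 FPKM with WT and 23.4, 21.7 and 23.5 FPKM with KO neutrophils, a log2 difference of -0.11 (95% CI -0.31 to 0.09, adjusted p = 0.352, limma).

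*Ticam1*, which encodes TRIF, the adaptor of TLR3 and TLR4 toward interferon (ENSMUSG00000047123, chromosome 17 from 56269319 to 56276786), had 10.8, 10.3 and 8.86 FPKM with WT and 9.41, 8.30 and 7.39 FPKM with KO neutrophils. The groups overlapped in KO replicate 1 and WT replicate 3. Its log2 difference of -0.24 (95% CI -0.53 to 0.05, adjusted p = 0.163 from limma) did not pass, although it did with median-of-ratios scaling (-0.46, adjusted p = 0.02, limma). *Tirap*, the bridge that brings MyD88 to TLR2 and TLR4 (ENSMUSG00000032041, chromosome 9 from 35184551 to 35200291), had 4.21, 5.06 and 3.30 FPKM with WT and 4.14, 4.50 and 3.39 FPKM with KO neutrophils. All KO libraries of *Tirap* lay within the range of the WT libraries, with a log2 difference of -0.05 and a 95% CI from -0.45 to 0.36 (adjusted p = 0.852, limma).

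Seen as a share of the summed adaptor FPKM, which is a value per length, *Ticam2* took a larger part with KO neutrophils. It made up 6.27% ± 0.321 with WT and 12.5% ± 0.0356 with KO neutrophils (SD, n = 3 each), and the groups did not overlap. *Myd88* made up 62.7% ± 4.35 and 55.6% ± 4.09, *Ticam1* 21.9% ± 2.21 and 21.6% ± 2.87, and *Tirap* 9.20% ± 2.04 and 10.3% ± 1.54, each with overlapping groups. The sum of the 4 was 44.8 to 46.2 FPKM with WT and 38.4 to 39.4 FPKM with KO neutrophils. Within a library, the ratio of *Ticam2* to *Ticam1* was 0.277, 0.281 and 0.305 with WT and 0.51, 0.583 and 0.662 with KO neutrophils, a log2 difference of 0.91 with no overlap (exact permutation p = 0.1, adjusted p = 0.3, the smallest raw p possible). The ratio of *Tirap* to *Myd88* lay between 0.106 and 0.19 with WT and between 0.143 and 0.212 with KO neutrophils, which overlap (exact permutation p = 0.3, adjusted p = 0.45).

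**Figure D2:**
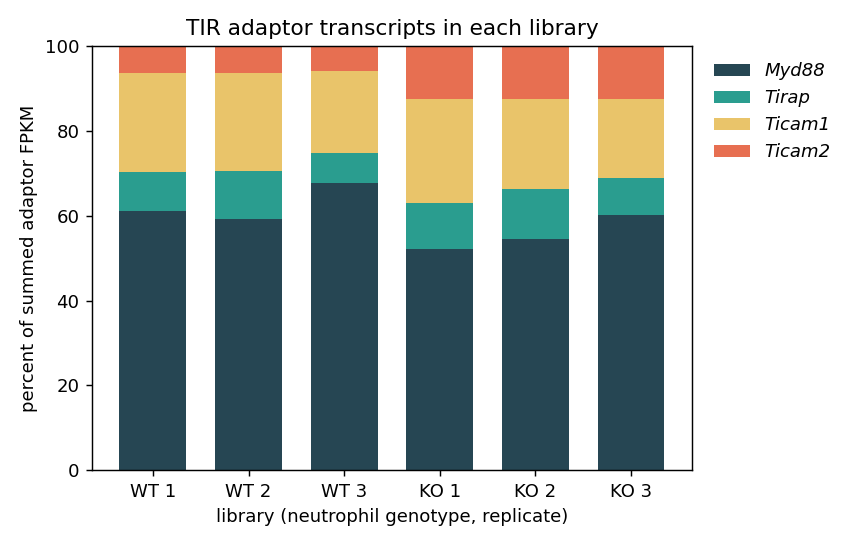
Share of each TIR adaptor in the summed FPKM of *Myd88*, *Tirap*, *Ticam1* and *Ticam2*, in percent, 1 bar per library. *Ticam2* takes 5.89% to 6.45% of the sum in the WT libraries and 12.4% to 12.5% in the KO libraries.

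The IRAK proteins act just after MyD88. *Irak2* (ENSMUSG00000060477, chromosome 6 from 113638467 to 113695026), with 9 annotated transcripts the gene with most isoforms among the 10, had 11.8, 14.7 and 8.57 FPKM with WT neutrophils and 5.45, 11.5 and 5.29 FPKM with KO neutrophils. KO replicate 2 lay within the range of the WT libraries and the other KO libraries lay below it. The log2 difference was -0.68 (95% CI -1.45 to 0.08, adjusted p = 0.141 from limma), and without KO replicate 2 it was -1.03 (adjusted p = 0.0225, limma). Leaving out any other library gave -0.88 to -0.50 and no call (adjusted p = 0.0809 to 0.337, limma).

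*Irak3*, whose product IRAK-M limits the signal in monocytes and macrophages (ENSMUSG00000020227, chromosome 10 from 120141648 to 120202130), had 8.46, 6.45 and 6.21 FPKM with WT and 5.73, 5.78 and 6.28 FPKM with KO neutrophils. The groups overlapped in KO replicate 3 and WT replicate 3, with a log2 difference of -0.22 (95% CI -0.53 to 0.09, adjusted p = 0.234 from limma). It passed with median-of-ratios scaling alone, at -0.43 (adjusted p = 0.0408, limma). The ratio of *Irak3* to *Irak2* ranged from 0.438 to 0.724 with WT and from 0.502 to 1.19 with KO neutrophils (exact permutation p = 0.3, adjusted p = 0.45).

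**Figure D3:**
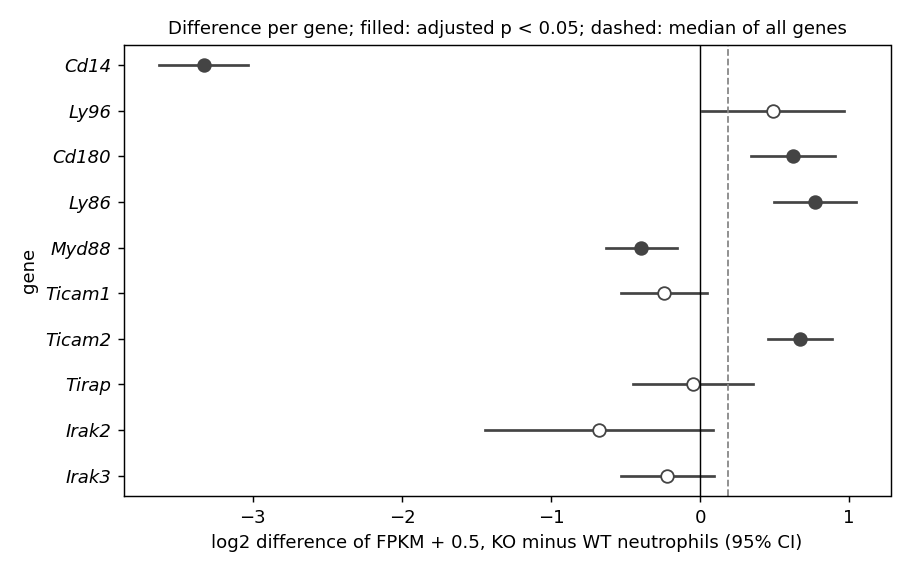
Log2 difference of FPKM + 0.5 (KO minus WT neutrophils) with its 95% confidence interval from limma, n = 3 libraries per group. Filled points passed an adjusted p-value of 0.05, and the dashed line is the median of all tested genes (0.19). The interval of *Cd14* lies below -3, and those of *Cd180*, *Ly86* and *Ticam2* lie above 0.19.

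The order of the levels changed with the group. With WT neutrophils *Cd14* stood far above the rest, followed by *Myd88* at 28.6 ± 2.23, *Cd180* at 19.5 ± 2.68 and *Ly86* at 17.4 ± 2.14 FPKM (SD, n = 3 each). Neighbours are taken as apart where mean ± SD does not overlap, and *Cd180* and *Ly86* were not. *Irak2* (11.7 ± 3.08), *Ticam1* (9.97 ± 0.993), *Irak3* (7.04 ± 1.24) and *Ly96* (6.98 ± 1.98) followed, and of these only *Ticam1* and *Irak3* were apart as neighbours. *Tirap* (4.19 ± 0.88), not apart from *Ly96*, and *Ticam2* (2.86 ± 0.142) came last. With KO neutrophils *Cd14* still led at 99.4 ± 8.39 FPKM, but *Cd180* (30.3 ± 1.77) and *Ly86* (30.05 ± 2.45) stood above *Myd88* (21.6 ± 1.86 FPKM). *Ly96* (9.79 ± 1.22), *Ticam1* (8.37 ± 1.013) and *Irak2* (7.42 ± 3.54 FPKM) were not apart from each other. *Irak3* (5.93 ± 0.305), *Ticam2* (4.84 ± 0.0465) and *Tirap* (4.01 ± 0.565 FPKM) were lowest, with *Irak3* within the wide spread of *Irak2*, and the mean of *Ticam2* now lay above that of *Tirap*.

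The other genes of the pathway were taken from 4 lists of 64 genes, of which 59 were tested. Over these, 18 were higher and 10 were lower in the libraries labelled KO (limma, adjusted p-value under 0.05 over all genes). By the same rule 27.1% of all tested genes were higher and 10.5% were lower. These shares are also the background of the counts per list below. The median log2 difference of the 59 genes was 0.08, beside 0.19 for all tested genes. The balance of the lists depended on scaling, with 6 higher and 16 lower under median-of-ratios scaling. Under that scaling 2057 of all 13367 tested genes were higher and 2259 were lower, and the median of all genes moved from 0.19 to -0.01. The members passed in the direction given above under that scaling too, *Cd14* with -3.56, *Myd88* with -0.62, *Cd180* with 0.40, *Ly86* with 0.55 and *Ticam2* with 0.47 on the log2 scale.

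Of 12 Toll-like receptors 9 were tested, 3 were higher and 1 was lower. *Tlr2*, the receptor for bacterial lipoproteins that also works with CD14, had 113 to 119 FPKM with WT and 26.6 to 30.3 FPKM with KO neutrophils, and fell by 1.99 on the log2 scale (adjusted p = 9.94e-06, limma). *Tlr9*, the endosomal receptor for unmethylated DNA, rose from 2.21 ± 0.674 to 6.80 ± 1.30 FPKM, with 1.45 on the log2 scale. *Tlr1*, a partner of TLR2, rose from 7.96 ± 1.71 to 14.5 ± 1.26 FPKM, and *Tlr13*, a receptor for bacterial ribosomal RNA, from 63.8 ± 4.89 to 85.8 ± 4.62 FPKM, although *Tlr13* did not pass with median-of-ratios scaling (adjusted p = 0.125, limma). So *Tlr2* moved in the direction of *Cd14* while *Tlr1* moved the other way.

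Among 5 genes for receptor folding, trafficking and lipopolysaccharide transfer, 2 were higher and 1 was lower. *Hsp90b1*, the endoplasmic reticulum chaperone on which most TLRs depend, fell from 349 ± 39.1 to 161 ± 11.7 FPKM (log2 difference -1.11, adjusted p = 0.000394, limma). *Unc93b1*, which escorts endosomal TLRs, rose from 115 ± 3.57 to 175 ± 7.20 FPKM (log2 difference 0.60, adjusted p = 0.00119, limma). *Lbp*, the lipopolysaccharide binding protein, was low throughout, at 0.389 ± 0.0335 and 0.732 ± 0.102 FPKM. It passed in the fit described here but in only 5 of the 15 alternatives that tested it, and leaving out any library except KO replicate 3 ended the call (adjusted p = 0.0542 to 0.119, limma).

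The kinases and ubiquitin enzymes downstream of the adaptors numbered 31, of which 9 were higher and 4 were lower, and 18 did not pass. With median-of-ratios scaling 2 were higher and 8 were lower. *Peli2*, a ubiquitin ligase that acts on IRAKs, rose from 2.30 ± 0.524 to 5.05 ± 0.686 FPKM, and its relative *Peli1* fell from 7.11 ± 0.507 to 5.33 ± 0.0872 FPKM. *Pik3ap1*, which encodes the adaptor BCAP that links TLRs to PI3K, rose from 51.9 ± 6.93 to 81.8 ± 4.51 FPKM. *Btk*, a kinase used by several TLRs, went from 11.9 ± 1.32 to 18.2 ± 2.12 FPKM and *Tab2*, part of the TAK1 complex, from 22.9 ± 3.81 to 32.0 ± 0.898 FPKM, both passing here but not with median-of-ratios scaling (adjusted p = 0.0562 and 0.155, limma). *Rnf31*, the catalytic subunit of the linear ubiquitin ligase, fell from 8.92 ± 0.307 to 4.75 ± 0.451 FPKM (log2 difference -0.85, adjusted p = 0.000793, limma). *Azi2* and *Tank*, scaffolds of the TBK1 kinase on the interferon branch, fell as well, with -1.07 and -0.28 on the log2 scale (adjusted p = 0.00218 and 0.0452, limma). *Tank* lost its call whichever library was left out (adjusted p = 0.0513 to 0.165, limma), *Peli1* when any except WT replicate 3 was (0.0502 to 0.06), and *Tab2* without WT replicate 1, KO replicate 1 or KO replicate 2 (0.0605 to 0.0745). *Ube2v1* had values in separate levels like *Tlr4*, with 3.77 FPKM in WT replicate 2 and 3.52 FPKM in KO replicate 3 and at least 26.0 FPKM in the other libraries.

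Inhibitors of the pathway moved both ways, with 4 of 14 tested genes higher and 4 lower, and with median-of-ratios scaling 1 higher and 6 lower. *Zc3h12a*, which encodes the RNase Regnase-1, fell from 22.8 ± 1.15 to 9.38 ± 0.711 FPKM (log2 difference -1.24, adjusted p = 0.000119, limma). *Tnfaip3*, which encodes A20, fell from 15.8 ± 3.77 to 7.16 ± 1.10 FPKM, and *Nfkbia*, the NF-kB inhibitor that NF-kB itself induces, fell from 72.2 ± 4.57 to 35.1 ± 1.04 FPKM. *Il1rl1*, the IL-33 receptor that can sequester MyD88, fell from 6.41 ± 0.571 to 3.27 ± 0.192 FPKM. *Nrros*, an endoplasmic reticulum protein of the TLR family without a TIR domain, rose from 29.4 ± 2.44 to 56.3 ± 3.29 FPKM (log2 difference 0.93, adjusted p = 0.000438, limma). *Otulin*, *Rnf216* and *Cyld* rose by 0.56, 0.46 and 0.29 on the log2 scale, but none of these passed with median-of-ratios scaling. *Cyld* also lost its call without any library except WT replicate 3 (adjusted p = 0.0725 to 0.174, limma), *Rnf216* without WT replicate 1 or any KO library (0.0881 to 0.122), and *Otulin* without WT replicate 1, WT replicate 2 or KO replicate 3 (0.0518 to 0.0556).

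**Figure D4:**
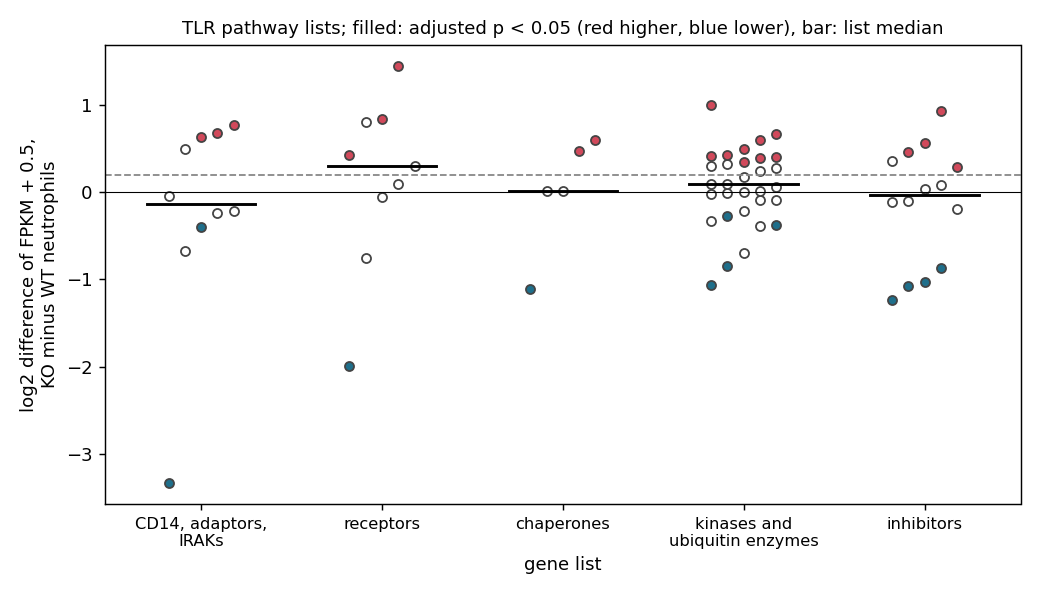
Log2 difference of FPKM + 0.5 (KO minus WT neutrophils) for the 10 genes and for the tested genes of the 4 pathway lists, 1 point per gene. Filled points passed an adjusted p-value of 0.05 (red higher, blue lower), bars are list medians and the dashed line is the median of all tested genes. *Cd14* lies lowest of all points at -3.33, followed by *Tlr2* at -1.99.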

How the data were processed

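The authors deposited FPKM per gene for 6 libraries, without read counts. Per the labels, the submitters' processing notes name fastp 0.17.1, HISAT2 2.1.0, DESeq2 1.18.1 and R 3.4.3, while the quantification tool, genome build and annotation are not given in the sources used here. Labels and methods disagree on the RNA kit, the library kit and the sequencer, and neither states strandedness. FPKM depends on the transcript length assumed for a gene and on the total of its library. Of 55335 identifiers, 55154 matched a symbol in GENCODE M21, used for names, positions and exon overlaps.

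Values were tested as log2(FPKM + 0.5), a scale that understates changes of low genes, with limma 3.58.1 in R 4.3.3 (eBayes with trend, two-sided, no covariates) in genes averaging 0.5 FPKM or more. DESeq2, which the study used, was not run, since it needs counts. The limma fit, but not the permutation test, was run on simulated data, and the outcome is not reported here. Ratios within a library used an exact permutation test, which cannot go below 0.1 with 3 libraries per group. Planned protein comparisons were not run. A marker of the B-lineage list is not reported here. Named genes were the members, *Tlr4*, *Cd177*, up to 4 rises and 4 falls called per pathway list, defining markers and the 2 most abundant markers per list, and *Ube2v1*, *Fcgr1*, *Mertk*, *C1qa*, *Csf1r*, *Cd68*, *Ebf1*, *Mmp8*, *P2ry12*, *Igll1*, *Tmed7* and *Acaa1a* were named after their values or annotation were seen. The members and lists were chosen with earlier results of these data known. Alternatives are given in the closing section. Other steps ran in Python 3.11.15 (pandas 2.3.3, numpy 2.4.6), and figures were drawn with matplotlib 3.10.9.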

Additional observations from a re-analysis of the deposited data

How the results depend on the processing

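*Cd14* stayed lower (log2 difference -3.56 to -3.21) and *Cd180* (0.40 to 0.71) and *Ly86* (0.55 to 0.86) stayed higher with an adjusted p-value under 0.05 (limma) in all 17 alternatives, and *Ticam2* (0.45 to 0.74) in all 16 that tested it. *Myd88* passed in 14 of 17. With the study's threshold 1 of the 10 genes passed, 0 higher and 1 lower, and at an adjusted p-value under 0.01 1 was lower. With median-of-ratios scaling 3 of the 10 genes were higher and 4 were lower, *Ticam1* and *Irak3* in addition. In the pathway lists 6 genes were then higher and 16 lower. Upper-quartile scaling gave 11 higher and 11 lower in the lists, beside 2878 higher and 1650 lower over the whole table. Over the whole table the calls were 3619 higher and 1408 lower as reported, 2057 and 2259 with median-of-ratios scaling, and 1756 higher of 2739 called where a mean of at least 5 FPKM was required, which tests fewer genes. The cause of these shifts was not tested.

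When single libraries were left out, between 1 and 2 of the 10 genes were lower, between 11 and 17 pathway genes were higher, the difference of *Tirap* ran from -0.189 to 0.0854, that of the ratio of *Cd180* to *Ly86* from -0.346 to 0.0167 and that of *Ly96* to *Tlr4* from -0.098 to 1.5, all on the log2 scale and none of them called. Replicate numbers are shared between the groups. Deviations from the group mean had correlations of 0.116, 0.036 and 0.264 between same-numbered libraries. Between differently numbered libraries the correlations ran from -0.233 to 0.16. Whether same-numbered libraries were paired was not tested. A replicate block gave 5934 calls in place of 5027, and *Ly96* (0.49, adjusted p = 0.0276, limma) and *Irak2* (-0.68, adjusted p = 0.0202, limma) then passed. FPKM without counts limits the precision of the lowest genes, *Lbp* among them.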
